A study of Homo sapiens with 6 samples.

Results

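The genes described here encode MHC class I molecules and the machinery that loads them with peptide in the endoplasmic reticulum (ER): HLA-B, HLA-C, HLA-E, B2M, TAP1, TAP2, TAPBP, NLRC5 and ERAP1. They were taken by symbol from the table of reads per gene, and all 9 were found among its 31582 genes. The libraries came from MDA-MB-231 cells, an established mesenchymal, hormone receptor-negative breast cancer line, that carried an shRNA against CALR (3 libraries, the knockdown group) or a non-targeting control (3 libraries). Both groups grew in the same serum-containing medium to about the same confluency, and no cytokine or other agent is named for either. The labels give neither the shRNA sequence nor whether the knockdown cells were a pool or a clone, and do not say whether replicates were grown or infected separately. The p-values therefore measure the spread between these libraries, which may be technical.

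A class I molecule is a heavy chain (here HLA-B, HLA-C or HLA-E) paired with beta-2-microglobulin, the product of B2M. The transporter TAP, made of TAP1 and TAP2, carries peptides from the cytosol into the ER, ERAP1 trims them, and tapasin, the product of TAPBP, holds empty heavy chains at TAP until a fitting peptide binds. Calreticulin, the product of CALR, is itself part of this loading complex, where it holds the glycan of the heavy chain together with the disulphide isomerase PDIA3. NLRC5 is the transcriptional activator of class I genes and binds their promoters through the RFX factors. HLA-B and HLA-C present peptides to cytotoxic T cells, and HLA-E mainly displays leader peptides of other class I chains to receptors of natural killer cells.

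Library totals lay between 34639090 and 42425310 counts, and 16394 genes passed the filter on low counts, all 9 members among them. CALR had 493, 66.4 and 110 CPM (counts scaled to a common library size) in knockdown replicates 1 to 3, against 1210, 979 and 926 CPM in control replicates 1 to 3, so 47.5%, 6.39% and 10.6% of the control mean remained. The knockdown libraries also differed more from each other than the controls did, with a chi-square per gene of 105 to 199 between knockdown pairs and 11.8 to 48.1 between control pairs. As markers of the line, VIM was at 2810 ± 346 CPM in knockdown and 1790 ± 81.9 CPM in control libraries, and ESR1 was at 0.456 ± 0.129 CPM in knockdown and 0.495 ± 0.120 CPM in control libraries (SD, n = 3 each). The 5 listed genes expected to be low in the line, ESR1 among them, summed to 39.4 to 56 CPM in knockdown and 45.9 to 49.3 CPM in control libraries. Of these, ERBB2 was not near 0, at 39.4 ± 10.2 CPM in knockdown and 37.2 ± 1.86 CPM in control libraries. EPCAM was at 7.87 ± 1.40 CPM in knockdown and 8.17 ± 0.486 CPM in control libraries. The 4 listed blood markers in the table summed to 0.657 to 1.36 CPM in knockdown and 1.13 to 1.44 CPM in control libraries. The 3 endothelial markers summed to 1.73 to 4.23 CPM in knockdown and 0.848 to 1.72 CPM in control libraries, and the 3 fibroblast markers to 7.83 to 14.1 CPM in knockdown and 6.52 to 13.1 CPM in control libraries. The part of these in the results was not tested, and in bulk RNA fewer cells of a kind and less RNA per cell cannot be told apart. At an adjusted p under 0.05, edgeR's quasi-likelihood test called 0 of the 16394 genes (DESeq2 called 530, limma-voom 0), so nothing below passed that threshold unless another fit is named. Before adjustment, 2546 genes had p below 0.05, 1340 higher and 1206 lower (15.5% in all). With library size alone as the scaling the split was 730 (4.45%) and 1809 (11%), and the median of all genes moved by −0.13 on the log2 scale.

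Of the class I machinery, NLRC5, B2M and TAPBP lay above every control in all 3 knockdown libraries, while HLA-B, HLA-C and HLA-E did not. HLA-B and HLA-C were below all controls in knockdown replicate 2 and above them in replicates 1 and 3, and HLA-E was within or below the control range. TAP1, TAP2 and ERAP1 overlapped the controls. Of the 9 members, 3 were higher with p below 0.05 before adjustment, as were 8.17% of all genes, and 0 were lower, as were 7.36% of all genes. The same 3 had groups that did not overlap on the higher side (11.3% of all genes) and 0 on the lower side (11.2% of all genes). Past the adjusted threshold were 0 of the 9 (0% of all genes). The 9 members had a median log2 fold change of 0.42, against 0 for all genes tested, with 7 positive and 2 negative values. The median was 0.63 without knockdown replicate 2, 0.22 without knockdown replicate 3, and 0.26 with library size alone, where that of all genes was −0.13. The genes were chosen with earlier results of these data known, so these counts describe them and do not set them apart from other genes.

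**Figure D1:**
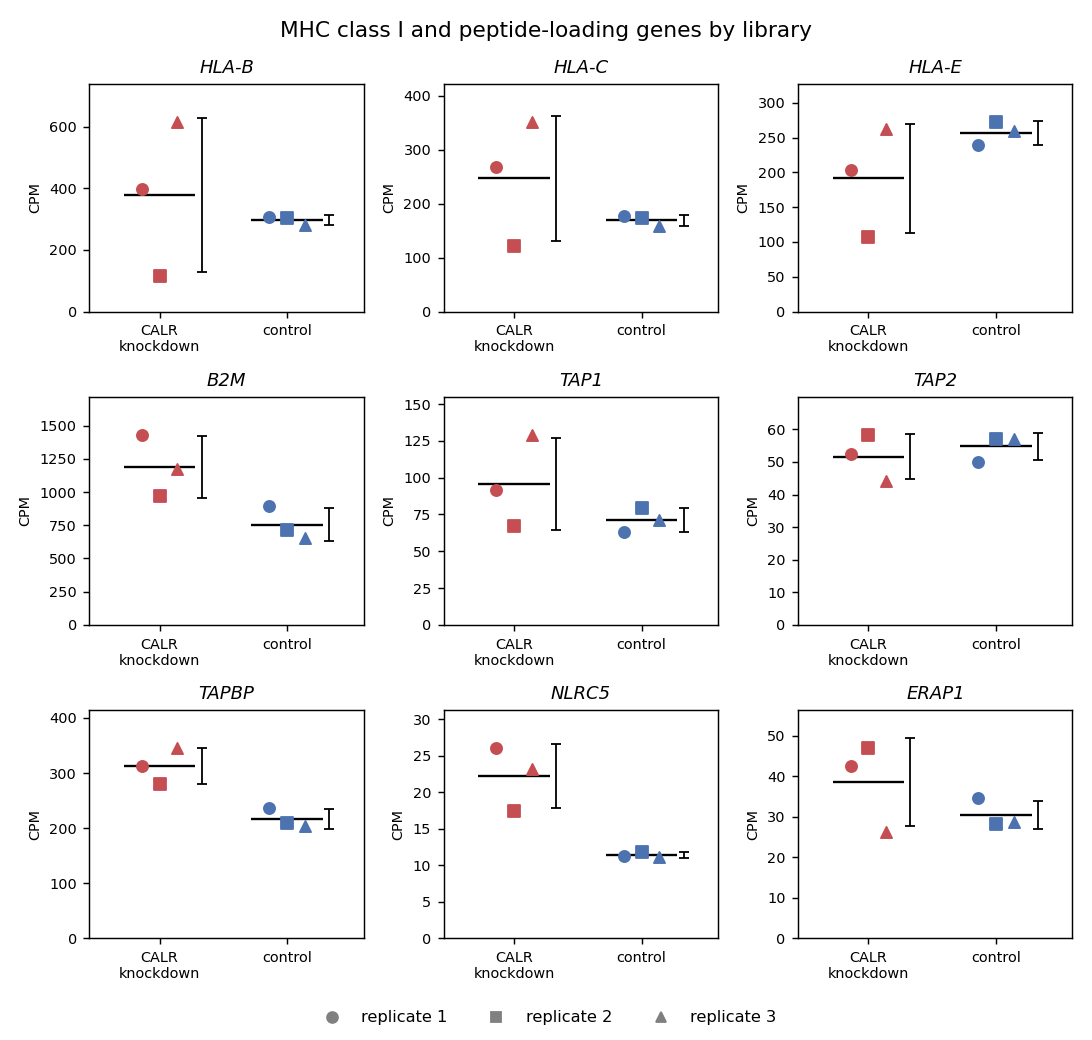
CPM (y axis, linear, from 0) of each member in each library, with CALR knockdown left of control; shapes mark the replicate number, the horizontal line is the group mean and the bar beside it the SD (n = 3). NLRC5, B2M and TAPBP are apart between the groups, and HLA-B, HLA-C and HLA-E are lowest in knockdown replicate 2.

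Compared per length, with the length-normalized fragment values (FPKM) that the authors deposited, the members kept nearly the same order in every library. B2M was the most abundant in all 6 and HLA-B second in all 6. HLA-C, HLA-E and TAPBP shared the next places, and TAP1, TAP2, ERAP1 and NLRC5 followed in that order in all 6. B2M was at 445 ± 73.5 FPKM in knockdown and 308 ± 40.9 FPKM in control libraries, and HLA-B at 212 ± 131 FPKM in knockdown and 188 ± 6.25 FPKM in control (SD, n = 3 each). HLA-C was at 114 ± 47.2 FPKM in knockdown and 87.2 ± 3.60 FPKM in control libraries, HLA-E at 64.7 ± 22.7 FPKM in knockdown and 96.7 ± 8.38 FPKM in control, and TAPBP at 66.5 ± 2.07 FPKM in knockdown and 50.4 ± 2.69 FPKM in control. In knockdown libraries the mean ± SD ranges of HLA-B and HLA-C overlapped, as did those of HLA-C, HLA-E and TAPBP, and in control libraries those of HLA-C and HLA-E did. TAP1 was at 28.7 ± 7.38 FPKM in knockdown and 23.7 ± 3.12 FPKM in control libraries, TAP2 at 7.56 ± 1.58 FPKM in knockdown and 8.69 ± 0.870 FPKM in control, ERAP1 at 4.73 ± 1.61 FPKM in knockdown and 4.01 ± 0.354 FPKM in control, and NLRC5 at 2.90 ± 0.448 FPKM in knockdown and 1.63 ± 0.0751 FPKM in control. The ranges of TAP2 and ERAP1, and of ERAP1 and NLRC5, overlapped in knockdown libraries and not in control libraries. The activator NLRC5 was the least abundant of the 9, with 423 counts in its lowest library.

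NLRC5 had the largest fitted difference of the 9. NLRC5 (ENSG00000140853.15) is on the plus strand of chromosome 16, from 56989485 to 57083531 in GRCh38. It was at 26.0, 17.4 and 23.1 CPM in knockdown replicates 1 to 3, against 11.2, 11.8 and 11.1 CPM in the controls. The lowest knockdown library was still at 153% of the control mean, and the controls were close together. The log2 fold change was 0.96 ± 0.21 (SE), with unadjusted p = 0.0013 and Benjamini-Hochberg adjusted p = 0.159 in edgeR. With DESeq2, NLRC5 was the only member past the adjusted threshold (log2 fold change 0.98, adjusted p = 0.00235), a threshold that 3.23% of all genes passed in that fit.

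B2M, on chromosome 15 at 44711487 to 44718877 (plus strand, ENSG00000166710.17), was at 1430, 969 and 1170 CPM in knockdown libraries, against 892, 717 and 657 CPM in control libraries. The groups did not overlap, though knockdown replicate 2 was close to control replicate 1. The log2 fold change was 0.66 ± 0.20, and edgeR's p was 0.0095 before and 0.218 after adjustment. TAPBP, on chromosome 6 at 33299694 to 33314387 (minus strand, ENSG00000231925.11), was at 313, 280 and 345 CPM in knockdown libraries, against 237, 210 and 203 CPM in control libraries. All 3 knockdown libraries were at 129% to 159% of the control mean. Its log2 fold change was 0.53 ± 0.16, and edgeR's p was 0.0083 before and 0.211 after adjustment. Without control replicate 3, edgeR's p before adjustment was 0.055 for TAPBP (log2 fold change 0.48) and 0.05 for B2M (0.57), and only NLRC5 of the 9 was counted as higher, as were 2.87% of all genes. Transcript GC content differed between them, at 40.6% for B2M and 57.6% for TAPBP. With a GC trend fitted and taken out library by library, the log2 fold change was 0.88 for B2M, 0.38 for TAPBP and 0.81 for NLRC5. Without the low-count filter B2M and NLRC5 passed the adjusted threshold (adjusted p = 0.0467 and 0.00992 in edgeR), as did 3.13% of all genes. Before adjustment 5 members were higher in that fit, as were 6.13% of all genes. The members' SEs there lay between 0.21 and 0.26, against 0.16 to 0.46 with the filter. CALR's adjusted p from edgeR was 1.45e-19 there, against 0.209 with the filter. The p-values without the filter thus reflect each gene's own spread less. With the replicate number as a block, 3 members were higher before adjustment, as were 5.98% of all genes.

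**Figure D2:**
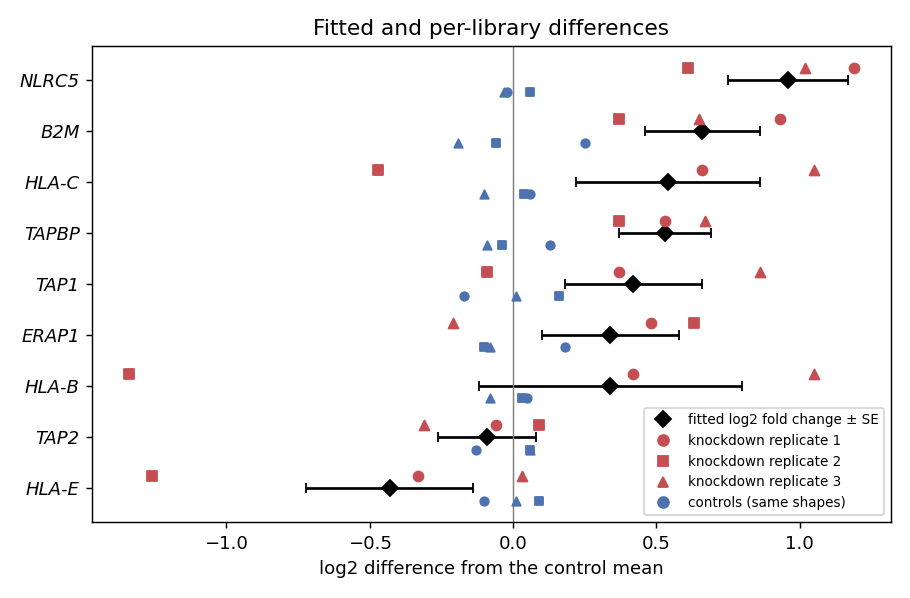
Log2 difference from the control mean (x axis) for each member (rows): black diamonds are the fitted log2 fold changes with their SE, red symbols the knockdown libraries and blue symbols the controls. For NLRC5, B2M and TAPBP all red symbols lie right of all blue ones, while HLA-B and HLA-E have knockdown replicate 2 at −1.34 and −1.26.

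HLA-B and HLA-C, the classical heavy chains described here, went together from library to library but lay on both sides of the controls. HLA-B, on chromosome 6 at 31269491 to 31357188 in the annotation (minus strand, ENSG00000234745.9), had 13927, 4715 and 22966 counts in knockdown libraries, against 11639, 11087 and 12226 in control libraries. As CPM these were 398, 117 and 616 in knockdown libraries, against 308, 304 and 280 in control libraries. Knockdown replicates 1 and 3 were above all controls and replicate 2 was below all of them, at 39.4% of the control mean. The fitted log2 fold change of 0.34 ± 0.46 (unadjusted p = 0.48, adjusted p = 0.734 in edgeR) averages these opposite values, and it was 0.77 without knockdown replicate 2 and −0.19 without knockdown replicate 3. After the GC correction it was 0.10, and on the log2(FPKM + 1) scale −0.08.

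HLA-C, at 31268749 to 31272130 (minus strand, ENSG00000204525.14) and overlapped by the annotated span of HLA-B, showed the same order of libraries. It was at 267, 122 and 352 CPM in knockdown libraries, against 177, 174 and 158 CPM in control libraries. Replicate 2 was at 72.2% of the control mean and replicate 3 at 207%. The log2 fold change was 0.54 ± 0.32 (unadjusted p = 0.13, adjusted p = 0.434 in edgeR). It was 0.87 without knockdown replicate 2 and 0.22 without knockdown replicate 3. Over the 6 libraries, the log2 CPM of HLA-B and HLA-C had a Pearson correlation of 0.92, a description of 6 points that share library and depth. This was not particular to the pair: TAPBP and NLRC5 had 0.94, B2M and NLRC5 0.93, B2M and TAPBP 0.92, and HLA-C and TAP1 0.91. HLA class I genes are close paralogs, so reads may have been divided among them. In the annotation HLA-B shares 1.15% of its exon bases with HLA-C on the same strand and 17.8% with AL671883.2 on the other.

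HLA-E, at 30489467 to 30494205 of chromosome 6 (plus strand, ENSG00000204592.8), did not share the higher values. It was at 204, 107 and 263 CPM in knockdown libraries, against 239, 273 and 259 CPM in control libraries. Replicate 3, where HLA-B and HLA-C were highest, was within the control range, and replicate 2 was at 41.7% of the control mean. The log2 fold change was −0.43 ± 0.29 (unadjusted p = 0.17, adjusted p = 0.480 in edgeR). It was −0.14 without knockdown replicate 2 and −0.70 without knockdown replicate 3, and −0.60 after the GC correction. Before adjustment HLA-E had p below 0.05 without knockdown replicate 3 (9.03% of all genes were lower there), with library size alone (11%), on the filtered log2(FPKM + 1) and log2(FPKM + 0.1) scales (10.7% and 10.5%), and after the GC correction alone or with the replicate block (8.58% and 8.99%).

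Set against each other within a library, where scaling cancels, HLA-C and HLA-E gave a ratio that did not overlap between the groups. The FPKM ratio of HLA-C to HLA-E was 1.79, 1.56 and 1.84 in knockdown libraries, against 1.01, 0.873 and 0.837 in control libraries. The geometric mean of the ratio was 1.91-fold higher in knockdown. An exact two-sided permutation test gave p = 0.1, the smallest that 3 against 3 libraries allow, and 0.48 after adjustment over the 6 quantities compared (5 ratios and the sum of the 3 heavy chains). The ratio was chosen after its values were seen. With any library left out, its log2 difference between the groups stayed between 0.88 and 1.01. The HLA-B to HLA-C ratio was lowest in knockdown replicate 2, with 1.82, 1.17 and 2.15 in knockdown libraries, against 2.14, 2.15 and 2.18 in control libraries. The ratio of B2M to the sum of HLA-B, HLA-C and HLA-E was 1.25, 2.24 and 0.719 in knockdown libraries, against 0.972, 0.763 and 0.757 in control libraries. This ratio was highest in knockdown replicate 2, while replicate 3 lay below all controls. Class I heavy chains other than these 3 were left out of the ratios. HLA-F is described below, and not all of the others were analysed here.

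**Figure D3:**
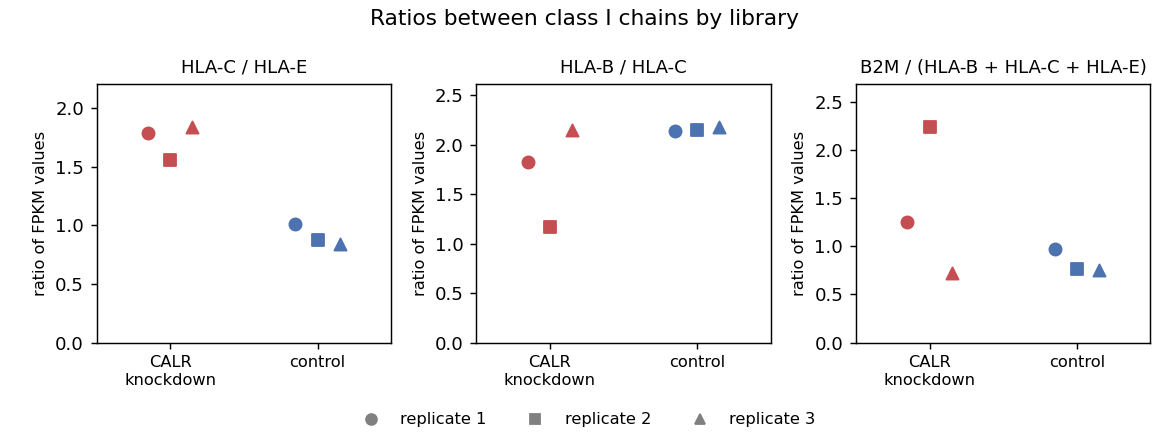
Ratios of deposited FPKM values (y axes, linear, from 0) in each library, with CALR knockdown left of control and shapes for the replicate number. HLA-C to HLA-E is 1.56 to 1.84 in knockdown against 0.837 to 1.01 in control libraries, and B2M to the 3 heavy chains is highest in knockdown replicate 2, at 2.24.

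The promoters of HLA-B and HLA-C are shown because the genes had the same order of libraries. Each line gives the 250 bases before the RefSeq start (GRCh38.p14), 5′ to 3′ on the strand of the gene. Capitals mark matches on either strand. The patterns sought were GAAA, any 2 bases and GAAA (an interferon response motif), and TGACG (the core of a cyclic AMP response element, as found in the X2 box). CCAAT, as found in the Y box, was also sought, though a match to it need not be a Y box. Only these exact letters were sought, so looser forms of such elements were not marked.
HLA-B, chr6:31357180-31357429, minus strand: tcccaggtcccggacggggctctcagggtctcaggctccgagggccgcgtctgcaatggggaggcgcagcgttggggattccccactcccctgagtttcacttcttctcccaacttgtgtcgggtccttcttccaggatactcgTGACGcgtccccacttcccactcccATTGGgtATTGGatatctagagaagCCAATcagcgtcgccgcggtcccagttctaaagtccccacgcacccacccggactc
HLA-C, chr6:31272093-31272342, minus strand: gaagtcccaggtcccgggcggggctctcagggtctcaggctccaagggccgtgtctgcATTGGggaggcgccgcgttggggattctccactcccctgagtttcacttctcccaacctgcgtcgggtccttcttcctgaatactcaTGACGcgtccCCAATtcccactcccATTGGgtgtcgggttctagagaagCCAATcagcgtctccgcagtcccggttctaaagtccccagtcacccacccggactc
The windows were identical at 226 of 254 aligned columns (89.0%). In both, TGACG (bases 106 to 102 before the start in HLA-B and 105 to 101 in HLA-C) was followed by CCAAT matches on either strand, the last at bases 56 to 52 in both. Neither window held an exact match to the interferon response motif, which does not show that they lack such an element. TGACG was found in 21.2% and CCAAT in 32.0% of all 35116 RefSeq promoter windows of this length. These are reference sequences, and the alleles of MDA-MB-231 may differ from them.

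Among the members with windows in RefSeq (7 of 9), B2M, TAPBP and TAP1 are shown because the first 2 lay above all controls and TAP1 did not, though all 3 hold an interferon response motif. TAP2, which overlapped the controls, held 1 such match at bases 58 to 49 before the start and TGACG at bases 35 to 31.
B2M, chr15:44711267-44711516, plus strand: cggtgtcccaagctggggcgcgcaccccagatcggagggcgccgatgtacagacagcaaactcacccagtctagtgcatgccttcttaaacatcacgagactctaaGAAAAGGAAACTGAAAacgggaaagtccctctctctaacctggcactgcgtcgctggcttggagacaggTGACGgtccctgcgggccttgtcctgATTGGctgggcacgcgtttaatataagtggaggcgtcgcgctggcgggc
TAPBP, chr6:33314079-33314328, minus strand: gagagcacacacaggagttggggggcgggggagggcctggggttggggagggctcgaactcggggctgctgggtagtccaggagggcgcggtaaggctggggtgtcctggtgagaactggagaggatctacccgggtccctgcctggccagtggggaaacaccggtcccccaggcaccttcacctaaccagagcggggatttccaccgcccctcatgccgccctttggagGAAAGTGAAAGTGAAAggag
TAP1, chr6:32853705-32853954, minus strand: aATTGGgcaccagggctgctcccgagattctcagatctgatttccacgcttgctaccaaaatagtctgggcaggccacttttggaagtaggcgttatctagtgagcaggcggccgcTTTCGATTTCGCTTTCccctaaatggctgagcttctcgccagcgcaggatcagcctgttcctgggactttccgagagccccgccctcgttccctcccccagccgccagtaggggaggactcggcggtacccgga
Each held 2 overlapping matches to the interferon response motif, at bases 144 to 129 before the start in B2M, 20 to 5 in TAPBP and 134 to 119 in TAP1, and this motif was found in 3.02% of all windows. B2M also held TGACG at bases 75 to 71. A match describes letters in the reference and was not linked to binding here.

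TAP1 and TAP2 encode the subunits of one transporter but differed in their values. TAP1, on chromosome 6 at 32845209 to 32853978 (minus strand, ENSG00000168394.10), was at 91.8, 66.9 and 129 CPM in knockdown libraries, against 63.4, 79.7 and 71.5 CPM in control libraries. Replicates 1 and 3 were above all controls and replicate 2 was among them. The log2 fold change was 0.42 ± 0.24 (unadjusted p = 0.11, adjusted p = 0.415 in edgeR), and it was 0.17 without knockdown replicate 3. TAP2, at 32821833 to 32838780 (minus strand, ENSG00000204267.13), was at 52.4, 58.3 and 44.3 CPM in knockdown libraries, against 50.0, 57.2 and 57.2 CPM in control libraries. The groups overlapped, at a log2 fold change of −0.09 ± 0.17 (unadjusted p = 0.63, adjusted p = 0.823 in edgeR). TAP2 shares 32.3% of its exon bases with AL669918.1 on the same strand, so part of its reads cannot be placed with certainty. The FPKM ratio of TAP1 to TAP2 was 3.66, 2.39 and 6.08 in knockdown libraries, against 2.64, 2.91 and 2.61 in control libraries.

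ERAP1, on chromosome 5 at 96760810 to 96808100 (minus strand, ENSG00000164307.12), was on both sides of the controls. It was at 42.5, 46.9 and 26.3 CPM in knockdown libraries, against 34.5, 28.3 and 28.7 CPM in control libraries. It was above all controls in replicates 1 and 2 and below all of them in replicate 3. The log2 fold change was 0.34 ± 0.24 (unadjusted p = 0.18, adjusted p = 0.492 in edgeR), and it was 0.18 without knockdown replicate 2. Before adjustment ERAP1 had p below 0.05 without knockdown replicate 3 (0.57, where 7.83% of all genes were higher), after the GC correction (0.55, 9.63%) and with the replicate block added to it (0.53, 8.69%). In each of these 3 fits ERAP1 joined NLRC5, B2M and TAPBP as 4 members higher. Its Pearson correlation over the 6 libraries was −0.86 with HLA-E, −0.64 with HLA-B and −0.39 with HLA-C.

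Because knockdown replicate 2 stood apart in HLA-B, HLA-C and HLA-E, the members were also compared without it. This choice used the members' own values. The knockdown libraries kept were above all controls in HLA-B and HLA-C, so the direction for these genes was fixed by the choice. Replicate 2 was also the lowest knockdown library for B2M, TAPBP and NLRC5 (969, 280 and 17.4 CPM). Leaving it out raised their log2 fold changes as well, so their adjusted p-values below are not independent of the choice. Replicate 2 had the least CALR left, 6.39% of the control mean, and replicate 1, which was kept, had 47.5%. In the edgeR fit without replicate 2, HLA-B (0.77), HLA-C (0.87), B2M (0.79), TAPBP (0.60) and NLRC5 (1.11) were higher past the adjusted threshold, with adjusted p-values of 0.0319, 0.0172, 0.0235, 0.0254 and 0.0150. The same threshold was passed on the higher side by 7.76% of all genes in that fit. HLA-E was at −0.14 (adjusted p = 0.549).

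The supply of peptides was followed with 14 listed genes of the proteasome, its activators and the cytosolic peptidases, all tested. Before adjustment 6 had p below 0.05 and were higher and 0 were lower, against 8.17% and 7.36% of all genes, with a list median of 0.41 on the log2 scale. The count of higher genes depended on the setting: it was 1 with library size alone (4.45% of all genes) and on both filtered FPKM scales (5.5%), 2 with the replicate block (5.98%) and 3 after the GC correction (9.63%). It was 5 with limma-voom (7.39%), and 8 with DESeq2 (9.41%), with DESeq2 size factors in edgeR (8.91%) and without the low-count filter (6.13%). PSME1, a subunit of the interferon-inducible proteasome activator, was at 209, 174 and 181 CPM in knockdown libraries, against 122, 123 and 114 CPM in control libraries (log2 fold change 0.65 ± 0.15, adjusted p = 0.168 from edgeR). Its partner PSME2 had a log2 fold change of 0.41 ± 0.16. The constitutive subunits PSMB5 (0.47 ± 0.19) and PSMB7 (0.41 ± 0.18), the cytosolic peptidase THOP1 (0.39 ± 0.15), which degrades peptides, and the immunoproteasome subunit PSMB10 (0.72 ± 0.30) were the others. The immunoproteasome subunits PSMB8, PSMB9 and PSMB10 had knockdown replicate 2 within or below the control range, with 65.4, 11.0 and 5.19 CPM, whereas both activator subunits were above all controls in every knockdown library. Without knockdown replicate 2 the count was 10 higher, where 17.9% of all genes were, and it was 1 or 2 with any other library left out, for example 1 without control replicate 3, where 2.87% of all genes were higher.

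Among 12 tested partners in loading and folding, PDIA3, the disulphide isomerase that works beside calreticulin in the loading complex, was at 749, 441 and 836 CPM in knockdown libraries, against 403, 373 and 380 CPM in control libraries. All 3 knockdown libraries were above all controls (log2 fold change 0.81 ± 0.23, adjusted p = 0.209 from edgeR). The glucosidase subunit GANAB, which trims glycans before calreticulin can bind, was at 0.61 ± 0.22. These 2 were the higher genes with p below 0.05 before adjustment, and CALR itself was the 1 lower, against 8.17% and 7.36% of all genes. The list median was 0.25, and 0.09 with library size alone.

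Of 14 listed class I-like molecules 12 were tested, and 2 were higher and 0 lower by the same measure (8.17% and 7.36% of all genes). The median log2 fold change was 0.12, and it was −0.02 without knockdown replicate 3 and −0.01 with limma-voom. HFE, a B2M-binding regulator of iron uptake, was at 19.1, 12.2 and 17.7 CPM in knockdown libraries, against 9.42, 7.55 and 6.65 CPM in control libraries (log2 fold change 1.05 ± 0.25, adjusted p = 0.169 from edgeR). MICA, a stress-induced ligand of natural killer cells, was at 97.9, 87.0 and 130 CPM in knockdown libraries, against 68.8, 73.2 and 68.2 CPM in control libraries (0.58 ± 0.18). Neither group pair overlapped. HLA-F, which no part of the naming rule chose, was at 3.54, 0.348 and 5.39 CPM in knockdown libraries, against 2.70, 2.03 and 1.97 CPM in control libraries, so that it had the library order of HLA-B and HLA-C at a low level.

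Of 20 tested transcription regulators of these genes (22 listed), 0 were higher and 1 was lower before adjustment in the edgeR fit. In that fit this was no larger a share than the 7.36% of all genes that were lower, and the median was 0.07. The lower one was RFXAP, a subunit of the RFX complex through which NLRC5 reaches promoters, at 5.71, 7.35 and 5.23 CPM in knockdown libraries, against 11.5, 9.42 and 7.84 CPM in control libraries (log2 fold change −0.65 ± 0.24, adjusted p = 0.268 from edgeR). Lower regulators numbered 2 with DESeq2 (6.99% of all genes), limma-voom (8.95%) and the replicate block (7.5%). They numbered 3 on the filtered FPKM scales (10.7% and 10.5%), 1 after the GC correction (8.58%) and 0 without control replicate 1 (4.7%). Groups that did not overlap were 3 on the lower side and 0 on the higher side (11.2% and 11.3% of all genes). Among 10 tested genes of interferon reception and signalling (13 listed), the receptor subunit IFNGR1 was lower (−0.40 ± 0.16) and the kinase TYK2 higher (0.42 ± 0.19) before adjustment, 1 gene each against 7.36% and 8.17% of all genes, and the median was 0.03. IRF1, a transcription factor of the interferon response named after its values were seen, overlapped the controls. IRF1 was at 50.3, 32.4 and 62.2 CPM in knockdown libraries, against 39.1, 51.0 and 43.6 CPM in control libraries.

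Surface turnover genes had 10 tested of 10 listed and a median of 0.18. SUSD6 and WWP2 act together in sending class I molecules to lysosomes, and they differed from the controls in opposite directions, both with p below 0.05 before adjustment, as the 1 lower and the 1 higher gene of the list (7.36% and 8.17% of all genes). SUSD6 was at 16.0, 7.08 and 11.6 CPM in knockdown libraries, against 20.3, 24.4 and 25.6 CPM in control libraries (log2 fold change −1.02 ± 0.29, adjusted p = 0.205 from edgeR), and WWP2 was at 46.6, 38.9 and 45.8 CPM in knockdown libraries, against 26.7, 33.7 and 30.6 CPM in control libraries (0.53 ± 0.17). Class II and lysosomal genes, of which 7 of 10 were tested, had 0 with p below 0.05 before adjustment. Their median difference from the control mean was 0.69, −0.93 and 0.54 in knockdown replicates 1 to 3, on the log2 scale. The class II chain HLA-DRA was at 0.886, 0.224 and 3.03 CPM in knockdown libraries, against 1.19, 0.220 and 0.252 CPM in control libraries, and the protease CTSS at 60.0, 14.9 and 57.0 CPM in knockdown libraries, against 29.2, 27.5 and 28.3 CPM in control libraries.

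**Figure D4:**
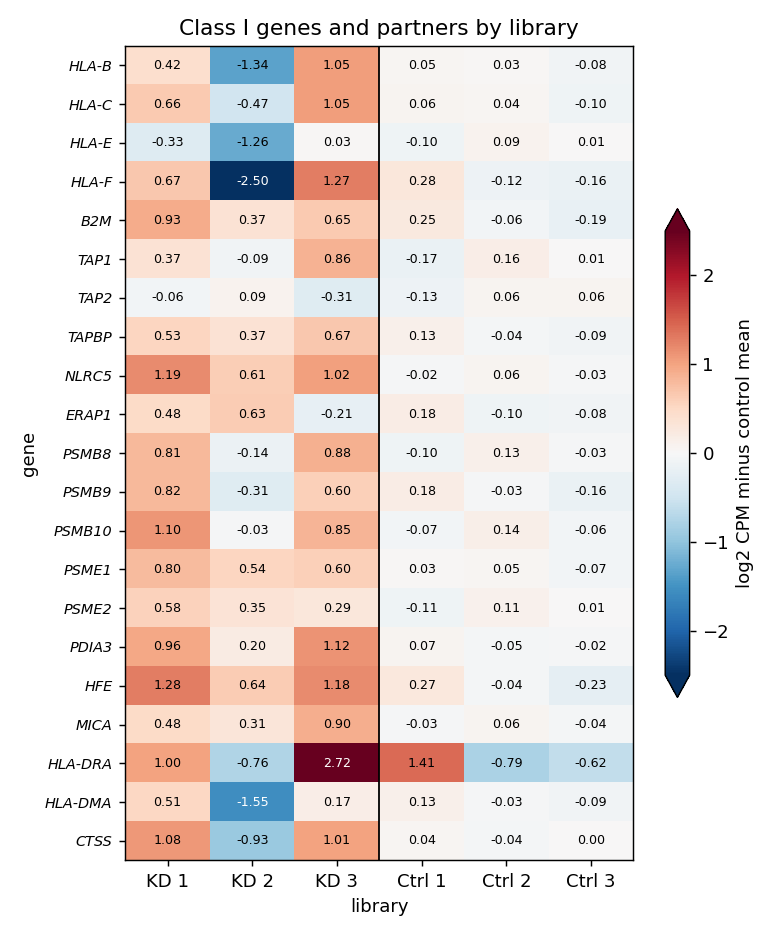
Log2 CPM minus the control mean (colour and printed value) for the 9 members, HLA-F and 11 partner genes (rows) in each library (columns, knockdown KD left of control Ctrl); the partners were picked after their values were seen. Knockdown replicate 2 is blue for HLA-B, HLA-E, HLA-F and HLA-DMA and red for B2M, NLRC5, PSME1 and HFE.

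The mean centred log2 CPM of the 9 members was 0.32, −0.27 and 0.39 in knockdown libraries, against −0.12, −0.12 and −0.20 in control libraries. The genes outside the lists most like this profile were ARHGEF10L, RPL38, CMTM3, CTSZ and PPIA, with Pearson correlations of 0.997 to 0.999 over 6 libraries. Of 12328 genes compared, 1070 had a correlation above 0.9, so the likeness was shared by many. The TMM scaling factors, which allow for library composition, were 0.939, 1.05 and 0.879 in knockdown libraries and 1.02 to 1.07 in control libraries. They were lowest where the profile was highest, and their part in it was not tested.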

How the data were processed

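RNA was sequenced from 6 MDA-MB-231 libraries, 3 with CALR knockdown and 3 controls, from polyadenylated RNA with a strand-keeping kit, per the labels' protocols. The authors deposited whole-number counts of reads per gene and FPKM values. The tools FastQC 0.9.5 and TopHat2 and the build GRCh38 are named, per the submitters' processing notes. How reads were assigned to genes, and whether strand was used, is not given in the sources used here, so reads of overlapping genes are uncertain.

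Genes passing filterByExpr (edgeR 4.0.16, R 4.3.3) were scaled with TMM factors and tested by the quasi-likelihood F-test without covariates. Benjamini-Hochberg adjustment ran over all 16394 genes, with a threshold of 0.05. The test was checked on simulated data with the same spread in both groups. The knockdown libraries differed more among themselves than the controls, so that check does not cover their uneven spread. SE is the absolute log2 fold change over the square root of F. CPM used TMM-scaled library sizes, and log2 CPM a prior count of 2. Coordinates and shared exon bases came from GENCODE 29 on GRCh38, matched by gene symbol. GC content came from the same release, matched by gene identifier without version, and promoters from RefSeq. The identifiers printed are those of the deposited counts, and for some genes their versions differ from GENCODE 29. Whether reads were counted against the same gene models is not known.

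The named genes were the 9 members, CALR, every gene of a pathway list with p below 0.05 before adjustment (or, where none had, the 2 with the smallest p), and the 5 genes most like the members. The members and lists were chosen with earlier results of these data known. Alternatives were other scalings, tools (DESeq2 1.42.0, limma 3.58.1) and filters, FPKM, GC correction, the replicate block and leaving out each library.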

Additional observations from a re-analysis of the deposited data

How the results depend on the processing

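Across 18 alternatives, HLA-C, HLA-E, B2M, TAP1, TAPBP, NLRC5 and ERAP1 kept the sign of their log2 fold change. HLA-B turned to −0.08 on the log2(FPKM + 1) and log2(FPKM + 0.1) scales, to −0.09 with the GC correction and the replicate block together, and to −0.19 without knockdown replicate 3, where TAP2 turned to 0.03. With 1 library left out HLA-B lay between −0.19 and 0.77 and TAP2 between −0.18 and 0.03. The cause was not tested. The number of genes past the adjusted threshold, 0 in the edgeR test reported, was 530 with DESeq2, 988 without a low-count filter and 5 on the unfiltered FPKM scale, and lay between 0 and 2604 with 1 library left out, the highest being without knockdown replicate 2 and 138 without knockdown replicate 3. Of the members, 1 passed with DESeq2 (NLRC5), 2 without the filter (B2M and NLRC5) and between 0 and 5 with 1 library left out. The count of genes with p below 0.05 before adjustment, 2546 as reported, was 3888 without the filter and 1206 to 5978 with 1 library left out. Members higher at that level numbered 5 without the filter and 1 to 6 with 1 library left out, the lowest without control replicate 3. HLA-E was the 1 member lower at that level with library size alone, on both filtered FPKM scales and after the GC correction with or without the block, and 0 to 1 were lower with 1 library left out. The same fits with the GC correction gave 4 members higher (ERAP1 added). Other pathway genes at that level, CALR as the shRNA target among them, were 16 of 85 tested, where 15.5% of all genes were at it. They numbered 7 to 39 with 1 library left out.

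Same-numbered libraries did not all deviate together (correlations of 0.195, −0.119 and −0.217), and no label pairs them, so the numbers were not used as pairs. With the replicate block, edgeR called 0 genes, 2209 had p below 0.05 before adjustment, and 3 members were higher. Counts of 14 to 201 for HLA-F and 8 to 113 for HLA-DRA limit what can be said of those genes.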
